A study of Mus musculus with 7 samples.

Results

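The genes described here encode the nuclear subunits and named assembly factors of mitochondrial complex I, chosen as every row of the gene count table whose symbol is Nduf followed by the letters a, ab, af, b, c, s or v and a number. The pattern matched 46 of 53819 genes, which are 37 complex I subunits, 8 assembly factors (Ndufaf1 to Ndufaf8) and Ndufa4, whose product is now counted as a complex IV subunit. All 46 passed the filter on low counts. RNA was sequenced from quadriceps, a thigh muscle, of wild type male C57BL/6J mice that had been injected, when 8 weeks old, with 200 µl of adeno-associated virus of serotype 8 into a tail vein and killed 54 days later. The virus was AAV8-Alb-IGFBP1 for 3 libraries (AAV8-IGFBP1) and AAV8-Alb-Null, the vector control, for 4 libraries (AAV8-Null). The labels describe the serotype as tropic for liver and do not say what drives the insert beyond the Alb in its name. Replicates are numbered, but nothing says whether they are different animals, so p-values reflect the spread among these samples alone and it may be technical.

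Complex I is the entry point of the respiratory chain: it takes electrons from NADH, passes them along iron-sulphur clusters to ubiquinone, and pumps protons across the inner mitochondrial membrane. It is L-shaped, with a peripheral arm in the matrix that holds the redox centres and a membrane arm that pumps. Mitochondrial DNA encodes the core of the membrane arm, nuclear genes encode the core of the peripheral arm and all accessory subunits, and assembly factors help to put the modules together without staying in the finished enzyme. Slow and other oxidative muscle fibres hold more mitochondria, and so more of this complex, than fast glycolytic fibres.

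Library totals lay between 38947493 and 51210391 estimated counts, and each value is given as CPM, the count normalised to the TMM-scaled library total. Igfbp1, whose product binds insulin-like growth factors, had 202, 1425 and 142 counts in AAV8-IGFBP1 replicates 1 to 3, against 0, 0, 0 and 8 counts in AAV8-Null replicates 1 to 4. A count of 0 allows up to 0.0596, 0.058 and 0.0785 CPM in AAV8-Null replicates 1 to 3, from counting error alone. Its fitted log2 fold change of 8.21 (SE 1.62) had an edgeR adjusted p of 0.138 and a DESeq2 adjusted p of 0.0128, and all AAV8-IGFBP1 libraries lay above all AAV8-Null libraries. All 8 muscle fibre markers were detected, at a summed level of 155726, 140092 and 149959 CPM in AAV8-IGFBP1, against 128957, 147313, 141886 and 143678 CPM in AAV8-Null, and 0 passed the test. They did not share a direction: Myh4, the myosin gene of the fastest fibres, had a log2 fold change of 0.17 with AAV8-IGFBP1 libraries above all controls, while Myh1 and Myh2, myosin genes of other fast fibres, were at -0.45 and -0.66 with overlapping groups, and Des, the desmin gene, was at -0.077 with AAV8-IGFBP1 libraries below all controls. Of all genes tested, 12.3% had groups that did not overlap. On the first principal component (27.2% of the variance) AAV8-IGFBP1 replicates 1 to 3 lay at -12.64, -45.24 and -8.24. AAV8-Null replicates 1 to 4 lay at 11.93, 14.12, 25.69 and 14.38. The groups did not overlap on this component, and AAV8-IGFBP1 replicate 2 stood apart from the other 6 libraries. That library also held the most RNA of white adipocyte markers, whose list level is given with the other lists below.

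No complex I gene passed the test. With edgeR (quasi-likelihood, adjusted p below 0.05), 0 of 46 genes were called higher and 0 lower in AAV8-IGFBP1, where 0.556% of the 14935 genes tested were called (0.362% higher and 0.194% lower). DESeq2 also called 0 of 46 (3.02% of all genes, 1.57% on the lower side) and limma-voom 0 of 46 (0.415% of all genes). At an unadjusted edgeR p under 0.05 there was 1 gene, Ndufb10, on the lower side, where 6.85% of all genes tested lay on that side, 5.8% on the higher side and 12.6% on either. In 0 of 46 genes did the libraries of the groups separate, against 12.3% of all genes tested (6.01% lower and 6.33% higher). The log2 fold changes ran from -0.22 for Ndufb10 to 0.18 for Ndufaf8, with a median of -0.070, beside a median of -0.0007 over all genes tested. The values leaned to the lower side: 35 of 46 lay below 0, as did 50.1% of all genes tested. The lowest bound of any 95% interval was -0.43, for Ndufs7, and the highest was 0.45, for Ndufaf8, 0.742 and 1.365 times the level of AAV8-Null, so for each gene changes beyond these bounds lay outside its interval. These genes were measured more finely than most, with a median SE of 0.0902, against 0.132 over all genes tested. Lower transcript levels in bulk muscle could mean less RNA per fibre or fewer fibres of a type, and these cannot be told apart here.

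**Figure D1:**
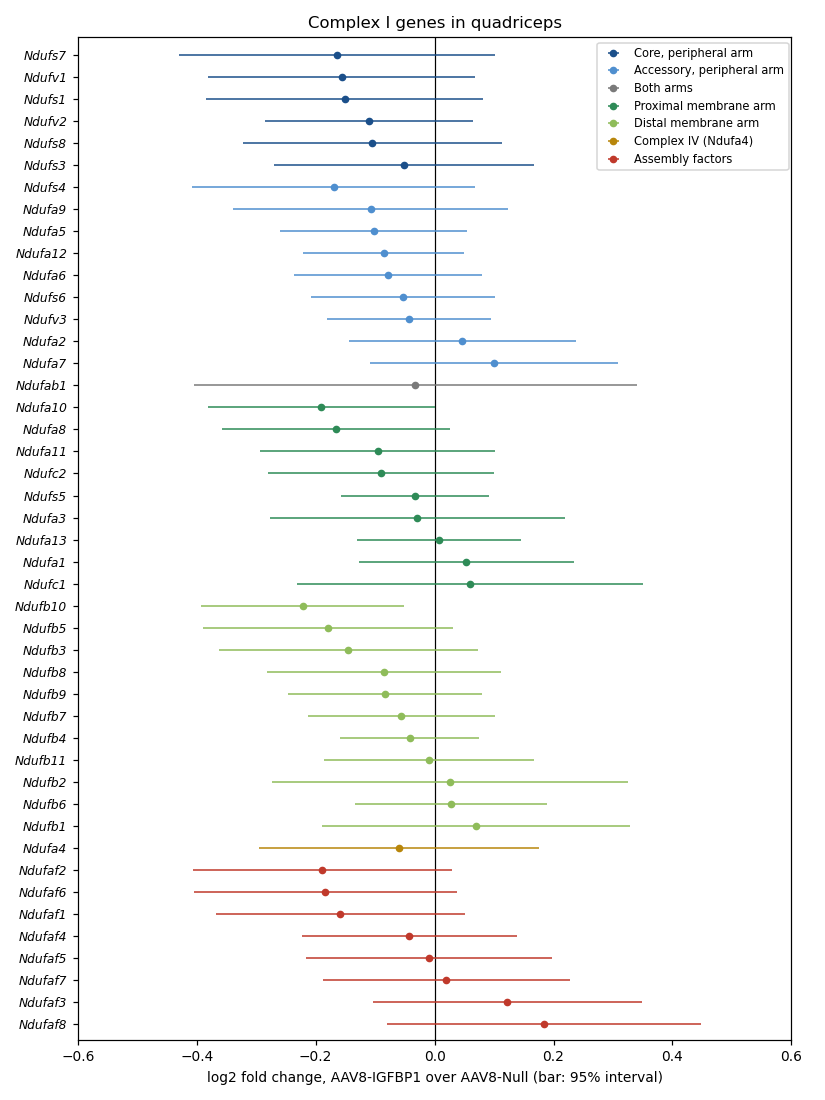
Log2 fold change (AAV8-IGFBP1 over AAV8-Null, horizontal axis) of 45 of the 46 genes, ordered by role and coloured by it, with its 95% interval from edgeR's fit of 3 against 4 libraries as a bar. The points lie between -0.22 and 0.18, more of them left of 0 than right, and the interval of Ndufb10 is the only one that leaves out 0.

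The 7 nuclear core subunits, which bind NADH and carry the chain of iron-sulphur clusters in the peripheral arm, all had log2 fold changes below 0, between -0.16 and -0.051 (median -0.11), and 0 passed the test. Ndufv1, which encodes the subunit that binds NADH and flavin, lay at 187, 191 and 221 CPM in AAV8-IGFBP1 replicates 1 to 3, against 243, 199, 201 and 247 CPM in AAV8-Null replicates 1 to 4 (log2 fold change -0.16 ± 0.10 SE, edgeR adjusted p 0.57). AAV8-IGFBP1 replicate 3 lay above 2 of the 4 control libraries, so the groups overlapped. Ndufv2, whose product sits beside it and holds an iron-sulphur cluster, had 188, 181 and 213 CPM in AAV8-IGFBP1, against 221, 202, 193 and 220.1 CPM in AAV8-Null (log2 fold change -0.11 ± 0.078 SE, edgeR adjusted p 0.615). Ndufs1, which encodes the largest subunit, the holder of several of the clusters, had 259, 252 and 312 CPM in AAV8-IGFBP1, against 321, 269, 285 and 343 CPM in AAV8-Null (log2 fold change -0.15 ± 0.10 SE, edgeR adjusted p 0.602). In both, replicates 1 and 2 of AAV8-IGFBP1 were the lowest of the 7 libraries and replicate 3 lay among the controls.

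The core subunits nearer the membrane had the same 2 AAV8-IGFBP1 libraries at the low end of that group. Ndufs7, which encodes the holder of the last cluster before ubiquinone, lay at 123, 106 and 142 CPM in AAV8-IGFBP1 replicates 1 to 3, against 152, 132, 119 and 151 CPM in AAV8-Null replicates 1 to 4 (log2 fold change -0.16 ± 0.12 SE, edgeR adjusted p 0.62). Replicate 2 of AAV8-IGFBP1 was its lowest library. Ndufs3, whose product is an early building block of this arm, had 127, 116 and 147 CPM in AAV8-IGFBP1, against 144, 129.8, 118 and 146 CPM in AAV8-Null (log2 fold change -0.051 ± 0.10 SE, edgeR adjusted p 0.877). Ndufs8, which encodes a further cluster protein, had 84, 78.3 and 99.6 CPM in AAV8-IGFBP1, against 104, 89.2, 84.6 and 97.7 CPM in AAV8-Null (log2 fold change -0.10 ± 0.10 SE, edgeR adjusted p 0.719). For Ndufs3 the highest library was AAV8-IGFBP1 replicate 3 and for Ndufs8 it was AAV8-Null replicate 1, and both ranges overlapped between the groups. Without AAV8-IGFBP1 replicate 2 the log2 fold change of Ndufs3 was 0.024, so its direction rested on that library.

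Accessory subunits of the peripheral arm surround this core without redox centres of their own. Of 9, 7 had a log2 fold change below 0 (median -0.078) and 0 passed the test. Ndufs4, whose loss in mice is a model of Leigh syndrome, had the lowest log2 fold change of the 9, at 77.2, 63.4 and 87 CPM in AAV8-IGFBP1, against 94, 86.8, 81.4 and 79.1 CPM in AAV8-Null (log2 fold change -0.17 ± 0.11 SE, edgeR adjusted p 0.561). Its lowest library was AAV8-IGFBP1 replicate 2, while replicate 3 lay above 3 of the 4 controls. Ndufa7, a small accessory subunit gene, had the highest, at 56.5, 46.6 and 58.3 CPM in AAV8-IGFBP1, against 55.1, 51, 45 and 49.7 CPM in AAV8-Null (log2 fold change 0.10 ± 0.093 SE, edgeR adjusted p 0.72). Here replicates 1 and 3 of AAV8-IGFBP1 were the highest of the 7 libraries and replicate 2 lay below 3 of the 4 controls. The remaining 7 genes (Ndufv3, Ndufs6, Ndufa2, Ndufa5, Ndufa6, Ndufa9 and Ndufa12) had log2 fold changes between -0.11 and 0.047. Ndufab1, which encodes the mitochondrial acyl carrier protein found in both arms, had the largest SE of all 46 genes, at 104, 105 and 132 CPM in AAV8-IGFBP1, against 137, 88.1, 111 and 130.1 CPM in AAV8-Null (log2 fold change -0.032 ± 0.16 SE, edgeR adjusted p 0.958). Its lowest library was a control, AAV8-Null replicate 2.

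In the proximal membrane arm, next to the peripheral arm, 6 of 9 accessory subunit genes lay below 0 (median -0.033) and 0 passed the test. Ndufa10, which encodes an accessory subunit of this region, had the lowest log2 fold change of the 9 and lay at 195, 195 and 225 CPM in AAV8-IGFBP1 replicates 1 to 3, against 255, 208, 229.5 and 244 CPM in AAV8-Null replicates 1 to 4 (log2 fold change -0.19 ± 0.085 SE, edgeR adjusted p 0.396). Replicates 1 and 2 of AAV8-IGFBP1 lay below every control, and replicate 3 lay above AAV8-Null replicate 2 alone. Ndufc1 had the highest, with 67.1, 50.8 and 71.1 CPM in AAV8-IGFBP1, against 66.8, 64.9, 52.5 and 57.5 CPM in AAV8-Null (log2 fold change 0.060 ± 0.13 SE, edgeR adjusted p 0.892). In Ndufc1 the AAV8-IGFBP1 group held both the highest and the lowest library. Ndufa1, a small subunit gene of the same region, varied little among controls: its 4 libraries lay between 81.8 and 84.4 CPM, with a coefficient of variation of 1.59%, while the AAV8-IGFBP1 libraries had 76.5, 98.4 and 84.2 CPM. It was picked after its values were seen, as the gene with the smallest spread among the controls.

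In the distal membrane arm, 8 of 11 Ndufb genes lay below 0 (median -0.056) and 0 passed the test. Ndufb10 was the nearest to the threshold of all 46 genes and lay at 177, 194 and 207 CPM in AAV8-IGFBP1 replicates 1 to 3, against 237, 206, 219 and 237 CPM in AAV8-Null replicates 1 to 4. It averaged 193 ± 15.1 CPM in AAV8-IGFBP1 and 225 ± 15 CPM in AAV8-Null (SD, 3 and 4 libraries), with a log2 fold change of -0.22 (SE 0.076, 95% interval -0.39 to -0.051). The unadjusted edgeR p was 0.0164 and the adjusted p 0.278, and the groups still overlapped, since AAV8-IGFBP1 replicate 3 lay just above AAV8-Null replicate 2. With DESeq2 the adjusted p was 0.15, and over all alternatives, by edgeR or another tool, it ran from 0.15 to 0.579. Ndufb1, the highest of the 11, had 48.7, 40.5 and 51.3 CPM in AAV8-IGFBP1, against 49, 48, 36.6 and 44.9 CPM in AAV8-Null (log2 fold change 0.069 ± 0.11 SE, edgeR adjusted p 0.858), with AAV8-Null replicate 3 the lowest library. Ndufb4 had the smallest SE of the 46 genes, 0.0522, and 92.6, 91.8 and 94.6 CPM in AAV8-IGFBP1, against 98.9, 93.1, 93.2 and 97.8 CPM in AAV8-Null. It was picked after its values were seen, and it may share reads with Ndufb4c, by its symbol a paralogue, which has 677 to 1060 counts per library, so their split is uncertain. The same holds for Ndufa12, Ndufab1 and Ndufs5, whose pseudogene rows Ndufa12-ps, Ndufab1-ps and Ndufs5-ps have 71 to 135, 12 to 25 and 21 to 48 counts per library. Ndufa4, the complex IV subunit with a complex I name, had 219, 194 and 254 CPM in AAV8-IGFBP1, against 254, 234, 200.0 and 239 CPM in AAV8-Null (log2 fold change -0.061 ± 0.10 SE, edgeR adjusted p 0.865).

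Assembly factors had a median nearer 0 than subunits, with genes on both sides of it; their median absolute log2 fold change was larger, 0.14, against 0.0831 for subunits. Neither difference was tested. Of 8 Ndufaf genes, 5 had a log2 fold change below 0 and 3 above, with a median of -0.026, beside 29 of 37 below 0 and a median of -0.082 for subunits; the medians differed by -0.056. None of the 8 passed the test (lowest edgeR adjusted p 0.471, for Ndufaf2). Ndufaf1, which encodes a member of the complex that builds the proximal membrane arm, had 21.3, 23.7 and 26.6 CPM in AAV8-IGFBP1, against 28.3, 25, 24.5 and 28.9 CPM in AAV8-Null (log2 fold change -0.16 ± 0.094 SE, edgeR adjusted p 0.536). Ndufaf2, a relative of the subunit gene Ndufa12 whose product acts late in assembly, had 6.51, 7.04 and 7.57 CPM in AAV8-IGFBP1, against 7.83, 7.56, 8.87 and 7.86 CPM in AAV8-Null (log2 fold change -0.19 ± 0.10 SE, edgeR adjusted p 0.471). Replicates 1 and 2 of AAV8-IGFBP1 lay below every control for both genes, and replicate 3 lay within the range of the controls. Ndufaf6, whose human counterpart is mutated in complex I deficiency, had 9.53, 8.99 and 10.6 CPM in AAV8-IGFBP1, against 11.4, 10.7, 9.74 and 12.2 CPM in AAV8-Null (log2 fold change -0.18 ± 0.10 SE, edgeR adjusted p 0.487), again with replicates 1 and 2 the lowest.

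The other assembly factors had smaller or opposite differences. Ndufaf3 and Ndufaf4 encode partners that help to form the module around the ubiquinone pocket. Ndufaf3 had 8.64, 8.29 and 8.17 CPM in AAV8-IGFBP1, against 8.7, 7.67, 6.7 and 7.64 CPM in AAV8-Null (log2 fold change 0.12 ± 0.10 SE, edgeR adjusted p 0.676). Ndufaf4 had 31.1, 30.7 and 35.5 CPM in AAV8-IGFBP1, against 35.9, 33.9, 29.8 and 33.9 CPM in AAV8-Null (log2 fold change -0.042 ± 0.081 SE, edgeR adjusted p 0.877). For Ndufaf3 the AAV8-IGFBP1 libraries lay within the upper part of the control range, and for Ndufaf4 the groups were interleaved. Ndufaf5, which encodes an enzyme that modifies the core subunit made from Ndufs7, had 18.1, 16.2 and 19.5 CPM in AAV8-IGFBP1, against 19, 18.9, 15.7 and 18.6 CPM in AAV8-Null (log2 fold change -0.0093 ± 0.093 SE, edgeR adjusted p 0.983). Ndufaf7, which encodes a methyltransferase that acts on complex I, had 12.6, 13.3 and 14.1 CPM in AAV8-IGFBP1, against 14.2, 11.6, 12.4 and 14.2 CPM in AAV8-Null (log2 fold change 0.020 ± 0.093 SE, edgeR adjusted p 0.955). Ndufaf8, known in human cells as the partner of the Ndufaf5 product, had the highest log2 fold change of all 46 genes, at 7.92, 7.25 and 9.41 CPM in AAV8-IGFBP1, against 8.09, 7.36, 6.94 and 6.45 CPM in AAV8-Null (log2 fold change 0.18 ± 0.12 SE, edgeR adjusted p 0.574). Replicate 3 of AAV8-IGFBP1 was the highest library for Ndufaf8, and replicate 2 lay below 2 of the 4 controls. Of 12 assembly factors without an Ndufaf name, 11 had a row, and 0 of these passed the test. Their log2 fold changes ran from -0.12 for Dmac2, a factor of the distal membrane arm, to 0.14 for Nubpl, which delivers iron-sulphur clusters, with a median of -0.011 and 7 of 11 below 0.

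The genes shared their highs and lows across libraries. Of 46 genes, 9, 6 and 41 lay above their own 7-library mean in AAV8-IGFBP1 replicates 1 to 3, against 46, 13, 8 and 38 in AAV8-Null replicates 1 to 4. AAV8-IGFBP1 replicate 2 was the lowest of the 7 libraries for 23 genes and AAV8-Null replicate 1 the highest for 21. The mean centred log2 CPM of the 37 subunits was -0.077, -0.13 and 0.088 in AAV8-IGFBP1 replicates 1 to 3, against 0.13, -0.037, -0.070 and 0.094 in AAV8-Null replicates 1 to 4. For the 8 assembly factors it was -0.069, -0.081 and 0.10 in AAV8-IGFBP1 replicates 1 to 3, against 0.11, -0.017, -0.089 and 0.049 in AAV8-Null replicates 1 to 4. Both lists therefore put the same 3 libraries, AAV8-IGFBP1 replicate 3 and AAV8-Null replicates 1 and 4, above 0. Among subunits the group means differed by -0.069 (AAV8-IGFBP1 minus AAV8-Null), while the level spanned 0.217 within AAV8-IGFBP1 and 0.202 within AAV8-Null. The subunit level minus the assembly factor level was -0.0085, -0.048 and -0.0086 in AAV8-IGFBP1 replicates 1 to 3, against 0.022, -0.021, 0.019 and 0.044 in AAV8-Null replicates 1 to 4. These ranges overlapped through AAV8-Null replicate 2.

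**Figure D2:**
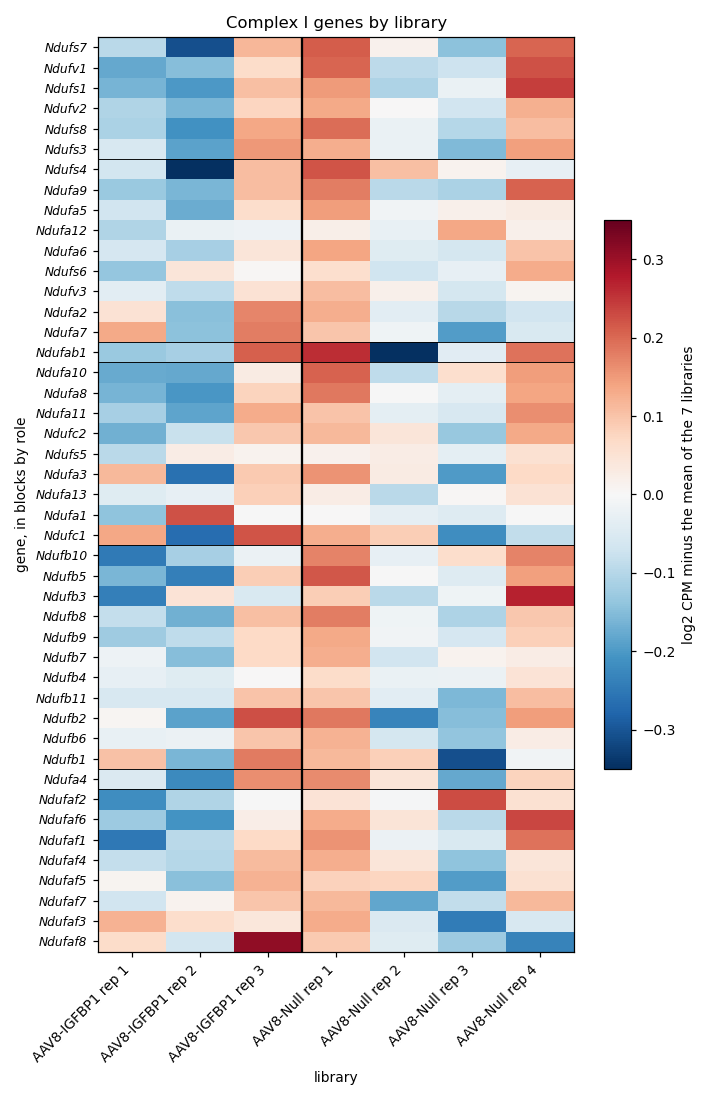
Log2 CPM of 45 of the 46 genes (rows, in blocks by role) minus its mean over the 7 libraries (columns, AAV8-IGFBP1 left of the black line), red above and blue below that mean. Columns tend to share a colour: AAV8-Null replicate 1 lies above the mean in all 45 rows, though for Ndufa1 by only 0.0007, too little to show as red. AAV8-IGFBP1 replicate 2 lies below the mean in all but 6.

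Nuclear subunits of complexes II to V, the rest of the respiratory chain and the ATP synthase, were above 0 in the same 3 libraries. Of their 43 genes, 38 had a log2 fold change below 0 (median -0.086) and 0 passed edgeR's test, with 3 at an unadjusted p under 0.05, all on the lower side (Cox7a1 -0.24, Cox6a2 -0.19 and Atp5h -0.20 in log2 fold change, with overlapping groups). Of all genes tested, 6.85% had such a p on the lower side. DESeq2 called 0 and limma-voom 0 of the 43. Their log2 fold changes ran from -0.25 for Sdhb, a complex II gene, to 0.49 for Cox6a1, a complex IV gene. Their level was -0.12, -0.093 and 0.075 in AAV8-IGFBP1 replicates 1 to 3, against 0.18, -0.072, -0.084 and 0.11 in AAV8-Null replicates 1 to 4. The 7 mitochondrial DNA genes for the membrane arm core had lower values still, with all 7 log2 fold changes below 0 (median -0.17), 0 called by edgeR, DESeq2 or limma-voom and 1, mt-Nd1, at an unadjusted edgeR p under 0.05. The lowest was mt-Nd1, at 15083, 15465 and 16185 CPM in AAV8-IGFBP1, against 18206, 16332, 19488 and 20997 CPM in AAV8-Null (log2 fold change -0.27 ± 0.10 SE, edgeR adjusted p 0.302), while mt-Nd6 was the highest, at -0.12. All AAV8-IGFBP1 libraries lay below all AAV8-Null libraries for mt-Nd1, as they did for 6.01% of all genes tested. The level of the 7 genes was -0.072, -0.21 and -0.0064 in AAV8-IGFBP1 replicates 1 to 3, against 0.10, -0.17, 0.14 and 0.22 in AAV8-Null replicates 1 to 4, so AAV8-Null replicate 3, low for the nuclear genes, was high for these.

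Markers of slow fibres also differed between libraries of a group. All 10 had log2 fold changes below 0 (median -1.41) and 0 passed edgeR's test. An unadjusted edgeR p under 0.05 was found for 5 (6.85% of all genes tested on the lower side), and DESeq2 called 1 lower (1.57% of all genes tested). That gene was Tnnc1, the slow troponin C gene, which had the lowest log2 fold change of the list (log2 fold change -1.71 ± 0.56 SE, edgeR adjusted p 0.324, DESeq2 adjusted p 0.0405). Its AAV8-IGFBP1 libraries lay below all controls, as for 6.01% of all genes tested. The level of the 10 genes was -1.51, -0.74 and 0.054 in AAV8-IGFBP1 replicates 1 to 3, against 1.15, -0.40, 0.37 and 1.08 in AAV8-Null replicates 1 to 4, and their summed level was 282, 526 and 892 CPM in AAV8-IGFBP1, against 1980.2, 633, 1223 and 1818 CPM in AAV8-Null. The library with the highest subunit level, AAV8-Null replicate 1, also had the most slow fibre RNA, and AAV8-IGFBP1 replicates 1 and 2 had the lowest values of both lists. In 2 libraries the lists parted: AAV8-IGFBP1 replicate 3 had a subunit level near that of AAV8-Null replicate 4 but a smaller slow fibre sum, and AAV8-Null replicate 3 had the third highest slow fibre sum but the third lowest subunit level.

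The 8 white adipocyte markers, all above 0 in log2 fold change (median 1.01), had a level of -0.0085, 1.70 and -0.48 in AAV8-IGFBP1 replicates 1 to 3, against 0.14, 0.10, -0.96 and -0.49 in AAV8-Null replicates 1 to 4, and a summed level of 2104, 2896 and 1200.2 CPM in AAV8-IGFBP1, against 1125, 1211, 1013 and 1238 CPM in AAV8-Null. None of the 8 passed edgeR's test, 1 had an unadjusted edgeR p under 0.05 (5.8% of all genes tested on the higher side), and DESeq2 called 1 higher (3.02% of all genes tested in either direction). In both cases this was Car3, which muscle also expresses (log2 fold change 0.81 ± 0.22 SE, edgeR adjusted p 0.191). Car3 made up more of the sum than the other markers together in 6 of 7 libraries (not AAV8-IGFBP1 replicate 2), and without it the other 7 markers summed to 402, 1463 and 301 CPM in AAV8-IGFBP1, against 481, 457, 240.5 and 341 CPM in AAV8-Null, so that replicate 2 alone stood above the controls. Endothelial markers had 6 of 6 log2 fold changes below 0 (median -0.12), 0 called by edgeR, DESeq2 or limma-voom, 1 at an unadjusted edgeR p under 0.05, and a level of -0.11, -0.059 and -0.044 in AAV8-IGFBP1 replicates 1 to 3, against -0.0048, -0.039, -0.0013 and 0.26 in AAV8-Null replicates 1 to 4. These levels only just failed to overlap, at -0.044 against -0.039, and AAV8-Null replicate 4 lay far above the rest. Among the 6 genes, 1 (Emcn) had groups that did not overlap, as did 6.01% of all genes tested on the lower side. Tenocyte markers had 8 of 8 below 0 (median -0.41), 0 called by these tools and 0 at an unadjusted edgeR p under 0.05. Their level was 0.54, -0.18 and -1.48 in AAV8-IGFBP1 replicates 1 to 3, against 0.10, 0.12, 1.07 and -0.17 in AAV8-Null replicates 1 to 4, and overlapped between the groups. Among the 8 genes, 1 (Tnmd) had AAV8-IGFBP1 libraries below all controls, as did 6.01% of all genes tested. The part of fibre type, fat, vessels and tendon in the complex I values was not tested. Without AAV8-IGFBP1 replicate 2 the subunit median was -0.042 and 0 of 46 genes were called. Without AAV8-IGFBP1 replicate 3, the library that lay highest of its group, it was -0.15, 42 of 46 genes lay below 0, and 12 of the 46 had an unadjusted edgeR p under 0.05, all on the lower side, with 0 called; of all genes tested in that fit, 49.6% lay below 0 and 6.51% had such a p on the lower side (lowest edgeR adjusted p of the 46 genes 0.231).

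**Figure D3:**
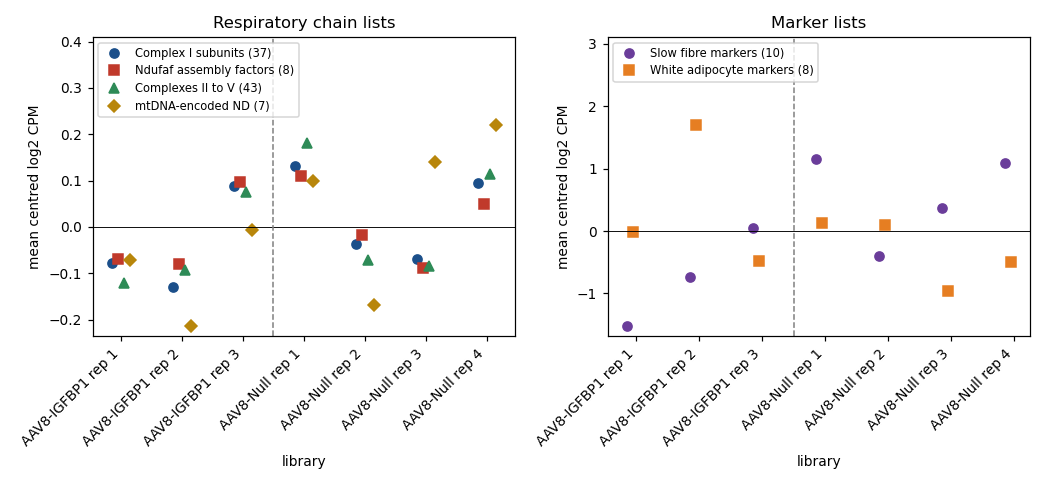
List level in each library (mean over genes of log2 CPM minus its 7-library mean), AAV8-IGFBP1 left of the dashed line; left panel, complex I subunits, assembly factors, complexes II to V and mitochondrial DNA-encoded subunits; right panel, slow fibre and white adipocyte markers on a wider axis. Subunits and assembly factors sit close together in every library, above 0 in the same 3 of 7.

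Subunit transcripts were far more abundant than those of assembly factors. Per kilobase of transcript, the median of 36 subunits with a known length was 127.3 CPM per kb, against 9.72 CPM per kb for the 8 assembly factors, a ratio of 13.1. With the shortest instead of the longest principal transcript of each gene, a choice made after the values were seen, the ratio was 13.2. The highest subunit was Ndufb9, at 419 CPM per kb, and the assembly factors ran from 5.36 for Ndufaf3 to 17.56 CPM per kb for Ndufaf1, below every subunit when the shortest transcripts were used (lowest 47.8 CPM per kb, for Ndufs4); with the longest, Ndufb2 was at 11.87 CPM per kb. The ratio of the medians was 12.66, 12.35 and 12.96 in AAV8-IGFBP1 replicates 1 to 3, against 13.25, 12.78, 13.41 and 13.49 in AAV8-Null replicates 1 to 4. These ranges overlapped, as replicate 3 of AAV8-IGFBP1 lay above replicate 2 of AAV8-Null. Transcript lengths come from an annotation of another build than the counts, so these levels are approximate.

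**Figure D4:**
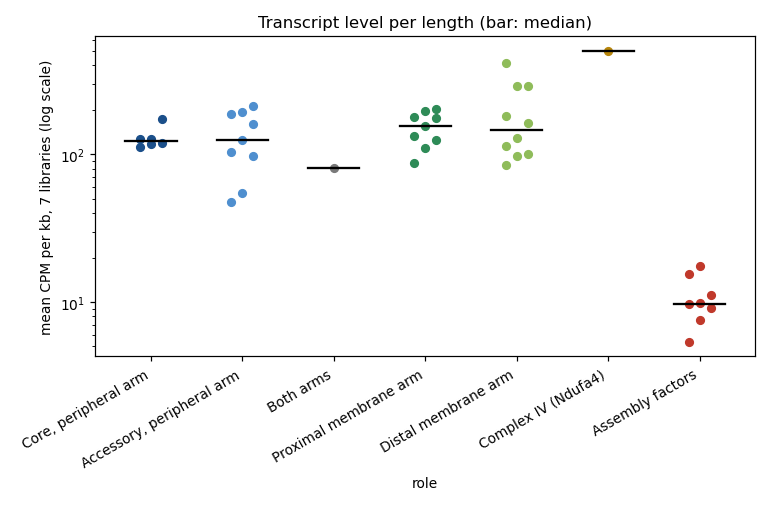
Mean CPM per kb over the 7 libraries (log axis) of the genes drawn in the other plots, by role, with the shortest principal transcript as length; black bars are medians of the points and Ndufb1, which had no length, is left out. All 8 assembly factors lie between 5.36 and 17.56 CPM per kb, below every subunit.

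Promoters of the 46 genes were read for 4 motifs of factors known to act on respiratory chain genes. The windows, 300 bases from 250 before to 50 after the start of transcription, are from RefSeq on GRCm38.p6, and 41 of the 46 genes had a window (among those without were Ndufa2, Ndufaf6, Ndufb9 and Ndufs1). The motifs were searched on both strands: GCGCA and GCGC with any base between them for NRF1, TNAAGGTCA for the oestrogen-related receptors, CCGGAAG for ETS factors such as GABPA, and AAGATGGC for YY1. Counts are of genes, and for a gene with several windows a motif in any of them counted. The NRF1 motif was found in 9 of 41 genes (22%), against 10.8% of tested genes with a window and 5.19% of all genes with a window. For YY1 the count was 8 of 41 (19.5%), against 5% of tested genes and 3.19% of all genes with a window. The ETS motif was in 6 of 41 (14.6%), against 19.1% and 9.93%, and the receptor motif was in 1 of 41 (2.44%), against 0.912% and 1.43%. Between subunits and assembly factors, NRF1 letters were in 7 of 33 and 2 of 7 genes with a window. The ETS letters were in 4 of 33 and 2 of 7, YY1 letters in 7 of 33 and 1 of 7, and receptor letters in 1 of 33 and 0 of 7. None of the differences in motif shares was tested. For 20 of 41 genes none of these letters was found in any window. The windows of 3 genes are shown because they hold the extremes of the results above: Ndufb10 with the lowest log2 fold change, Ndufaf8 with the highest, and Ndufb4 with the smallest SE. Capitals mark the motif letters, which do not overlap each other in these windows. Ndufb10 (chr17:24724374-24724673, minus strand) held none of the 4 motifs, Ndufaf8 (chr11:120098684-120098983, plus strand) held CCGGAAG and AAGATGGC, and Ndufb4 (chr16:37654319-37654618, minus strand) held 3 NRF1 motifs and 1 receptor motif.
Ndufb10: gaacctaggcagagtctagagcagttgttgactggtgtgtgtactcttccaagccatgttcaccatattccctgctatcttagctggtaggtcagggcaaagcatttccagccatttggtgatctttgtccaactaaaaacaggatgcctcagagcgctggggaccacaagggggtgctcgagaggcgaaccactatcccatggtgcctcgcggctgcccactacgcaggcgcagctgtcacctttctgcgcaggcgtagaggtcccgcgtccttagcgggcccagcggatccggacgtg
Ndufaf8: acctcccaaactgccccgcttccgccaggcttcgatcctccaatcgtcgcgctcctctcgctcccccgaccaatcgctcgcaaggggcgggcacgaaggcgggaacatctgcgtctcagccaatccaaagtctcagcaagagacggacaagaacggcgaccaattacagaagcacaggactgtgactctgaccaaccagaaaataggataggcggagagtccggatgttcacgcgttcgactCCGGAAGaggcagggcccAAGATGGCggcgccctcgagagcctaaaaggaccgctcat
Ndufb4: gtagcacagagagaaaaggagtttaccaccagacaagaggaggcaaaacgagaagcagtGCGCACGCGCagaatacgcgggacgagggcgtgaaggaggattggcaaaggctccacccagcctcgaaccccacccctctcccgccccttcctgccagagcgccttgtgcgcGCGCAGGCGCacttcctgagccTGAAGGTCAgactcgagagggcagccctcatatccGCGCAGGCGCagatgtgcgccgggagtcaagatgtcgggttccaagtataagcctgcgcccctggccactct
Genes with and without a motif were not compared for their response, since none of the 46 passed the test.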

How the data were processed

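RNA of quadriceps was measured in 7 libraries. Per the labels' protocols, an RNeasy column kit gave total RNA, and the library kit was Universal Plus mRNA-Seq. What the authors deposited is a single table of estimated counts with a row per gene symbol. The submitters' processing notes name, without roles, STAR 2.7.9a, Salmon 1.10.1, Trim Galore 0.6.7, cutadapt 3.4, R 4.2.2 and the build GRCm39; the annotation release and the strandedness are not given in the sources used here. Titles gave the groups, and sample descriptions matched the columns.

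The counts were rounded. The test was edgeR 4.0.16 (R 4.3.3): filterByExpr (minimum count 10, minimum total 15), TMM, estimateDisp, a robust glmQLFit and glmQLFTest on group, with Benjamini-Hochberg adjustment over 14935 genes and a threshold of 0.05. Each SE is |log2 fold change| over the root of F, and 95% intervals use the degrees of freedom of the test. Log2 CPM had a prior count of 2. Floors are 3 counts and cover counting error only. Lengths are those of APPRIS principal transcripts (GENCODE M21). Within a group, libraries differed by more than counting error (chi-square over degrees of freedom from 20.43 to 54.56), so none was the same library sequenced again. This check cannot tell separate animals from separate preparations of the same animal. The steps were run on simulated data whose planted changes were larger than any seen in the complex I genes. That run does not show how well changes of their size are found. Alternatives were DESeq2 1.42.0, limma-voom (limma 3.58.1), other scalings, filters and thresholds, the replicate block, and each library left out.

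The genes, lists and tests were chosen with earlier results of these data known. Named with values were core subunits, all assembly factors, Ndufa4, Ndufab1, the highest and lowest log2 fold change of each other role group and of the lists of other assembly factors, respiratory chain genes and regulators, and any complex I gene with an edgeR p under 0.05 or groups that did not overlap. Other genes, those of the cell type marker lists included, were picked after their values were seen. A core subunit gene is counted in the totals and medians but is not reported here by itself, in text or plots.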

Additional observations from a re-analysis of the deposited data

Results flagged for a closer look

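Among 59 values tested for a library far from the others of its group (within the 4 AAV8-Null libraries), 1 stood out, where chance flags about 1 in 20. Ndufaf5, which encodes an assembly factor enzyme, had 15.68 CPM in AAV8-Null replicate 3, where the remaining 3 controls had 18.64 to 19.01 CPM. The gap to the nearest library was 0.888 of the range, above Dixon's limit for 4 samples. Groups of 3 are not tested in this way, so AAV8-IGFBP1 values are not covered. Without that library the log2 fold change of Ndufaf5 was -0.070 and it did not pass edgeR's test either way.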

How the results depend on the processing

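No complex I gene was called under any alternative: 0 of 46 with edgeR under other scalings, without a filter, with a stricter filter, with the replicate block, at a threshold of 0.1 and without each library in turn, and 0 with DESeq2 or limma-voom. The lowest adjusted p was always that of Ndufb10. Over all genes, 54 were called higher and 29 lower, against 216 and 235 with DESeq2, 155 and 151 without a filter, and 111 and 104 at the threshold of 0.1; limma-voom called 18 lower. Leaving out each library gave 16 to 46 higher and 3 to 40 lower, the fewest without AAV8-Null replicate 1. The labels do not state that replicate numbers pair the libraries. Same-numbered deviations correlated at -0.0984, 0.0682 and -0.0574, and differently numbered ones at -0.105 to 0.149. With so few libraries these values cannot settle whether there is pairing. With the replicate block 14 genes were called higher and 5 lower. Under that block Ndufaf5 turned to 0.0068 and Ndufab1 to 0.0399 in log2 fold change, and the subunit median was -0.0557. With each library left out, the subunit median ran from -0.147 to -0.041, the assembly factor median from -0.093 to 0.0091, and their difference from -0.0685 to -0.026, the last without AAV8-Null replicate 3. So the order of subunits below assembly factors held in these settings, but the assembly factor median changed side of 0. Over the same settings the log2 fold change changed sign in 7 named genes: Ndufs3 -0.15 to 0.024, Ndufaf5 -0.074 to 0.059, Ndufaf7 -0.034 to 0.064, Ndufa4 -0.17 to 0.028, Ndufab1 -0.15 to 0.055, Ndufc1 -0.035 to 0.19 and Ndufb1 -0.013 to 0.16. None of these was called, and the cause was not tested. Of 322 alternative values of 23 named genes, 19 changed sign. A count of 3 to 4 libraries a group limits what can be seen: the intervals of single genes leave room for differences of up to 36.5%.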

Other observations

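Regulators of oxidative metabolism had the lowest log2 fold change in Perm1, a muscle gene that promotes mitochondrial gene expression. Perm1 had 172, 166 and 229 CPM in AAV8-IGFBP1, against 283, 208, 260.0 and 281 CPM in AAV8-Null (log2 fold change -0.45 ± 0.14 SE, edgeR adjusted p 0.262). AAV8-IGFBP1 replicate 3 lay above AAV8-Null replicate 2, so the groups overlapped, and DESeq2 gave an adjusted p of 0.0434. Ppargc1a, the coactivator gene PGC-1 alpha, had 29.3, 32.1 and 32.3 CPM in AAV8-IGFBP1, against 38, 31.6, 57.3 and 41.6 CPM in AAV8-Null (log2 fold change -0.43 ± 0.19 SE, edgeR adjusted p 0.411), with AAV8-Null replicate 3 the highest library. Of the 8 regulators, 4 lay below 0 and 4 above, and Ppargc1b was the highest (log2 fold change 0.14 ± 0.13 SE, edgeR adjusted p 0.717). Of the genes whose motifs were searched in the promoters, Esrra, an oestrogen-related receptor gene, had 78.3, 84.1 and 99.98 CPM in AAV8-IGFBP1, against 106, 85.7, 99.7 and 95.9 CPM in AAV8-Null (log2 fold change -0.15 ± 0.10 SE, edgeR adjusted p 0.589). The log2 fold changes of Nrf1, Gabpa and Yy1 were -0.0056, 0.0041 and 0.0031.

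Among the respiratory chain genes outside complex I, Cox6a1, the complex IV isoform gene of tissues other than muscle, had 13.7, 43.1 and 13.3 CPM in AAV8-IGFBP1, against 23.6, 17.3, 12.5 and 13.1 CPM in AAV8-Null (log2 fold change 0.49 ± 0.52 SE, edgeR adjusted p 0.767), with AAV8-IGFBP1 replicate 2 far above the rest. Cox8a, a further such isoform gene, had 15.1, 37.4 and 13.6 CPM in AAV8-IGFBP1, against 25.3, 16.7, 15.9 and 18.3 CPM in AAV8-Null (log2 fold change 0.21 ± 0.41 SE, edgeR adjusted p 0.884). Cox8a was picked after its values were seen. Ucp1, 1 of 6 brown adipocyte markers and likewise picked after its values were seen, had 12.4, 123 and 9.98 CPM in AAV8-IGFBP1, against 10.4, 4.43, 2.3 and 2.02 CPM in AAV8-Null (log2 fold change 3.31 ± 1.18 SE, edgeR adjusted p 0.354), highest in the same library. Of the 6 markers, 4 lay above 0 and 2 below (Cox7a1 -0.24 and Cox8b -0.029 in log2 fold change). EdgeR called 0 and DESeq2 1 of them, against 0.556% and 3.02% of all genes tested. The gene called by DESeq2 was Elovl3, not Ucp1 (log2 fold change 4.83 ± 1.23 SE, edgeR adjusted p 0.191, DESeq2 adjusted p 0.0083). Elovl3 had 19, 234 and 30 counts in AAV8-IGFBP1, against only 6, 6, 2 and 0 counts in AAV8-Null. Its AAV8-IGFBP1 libraries lay above all controls, as for 6.33% of all genes tested. The level of the 6 markers was -0.0072, 1.965 and 0.085 in AAV8-IGFBP1 replicates 1 to 3, against 0.099, -0.34, -0.73 and -1.07 in AAV8-Null replicates 1 to 4.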
